A study of Rattus norvegicus with 16 samples.

Results

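Heat shock chaperones are proteins that hold, fold and refold other proteins. A set of 10 of their genes was followed in the hippocampus of rats made epileptic with iron: Hspa1a, Hspa8, Hspb1, Hsp90aa1, Hsp90ab1, Hsph1, Dnajb1, Hspd1, Hspe1 and Cryab. Each gene was represented by the non-control array probe whose RefSeq accession belongs to the symbol, and where several probes matched, by the one with the highest mean signal over the 16 arrays. A probe was found in this way for 9 of the 10 genes, out of 26565 genes and unnamed probes tested on the whole array, and all 9 passed the filter on dim probes. Dnajb1, the J protein that works with inducible Hsp70, was not analysed here on the arrays. The set is usually described as cytosolic, but Hspd1 and Hspe1 encode the chaperonin and co-chaperonin of the mitochondrial matrix.

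RNA came from the whole right hippocampus of 16 male Wistar rats, 4 per group, with 1 array for each rat. All rats had a guide cannula placed over the right amygdala under pentobarbital at 5 weeks of age, and 5 days later 1.0 µl was infused through it. Control rats received saline at pH 2.2. The Fe groups received 100 mM FeCl3 in saline at the same pH, which starts recurrent limbic seizures, and their tissue was taken 5, 15 or 30 days later (Fe day 5, Fe day 15, Fe day 30). Every control was taken on day 15, so the comparisons of Fe day 5 and Fe day 30 also carry a difference in age and in days from infusion to sampling. The series text does not record seizure rates, and the left hippocampus was not analysed here. In whole tissue, a change in the number of cells of a type and a change in RNA per cell cannot be told apart.

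Under proteotoxic stress, heat shock factor 1 forms trimers and binds heat shock elements, inverted repeats of the unit GAA, in front of chaperone genes. Hspa1a encodes the inducible cytosolic Hsp70, which is scarce in unstressed brain, whereas Hspa8 encodes its constitutive relative Hsc70, abundant in neurons. Hsp90aa1 and Hsp90ab1 encode the inducible and the constitutive cytosolic Hsp90, Hsph1 the nucleotide exchange factor Hsp110, and Hspb1 and Cryab the small heat shock proteins Hsp27 and alpha B-crystallin, which in brain are known from astrocytes, oligodendrocytes and vessels.

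The heat shock elements of these genes were read from promoter windows of RefSeq (assembly GRCr8), each running from 250 bases before to 50 bases after the annotated start. The search used GAANNTTC and TTCNNGAA for elements of 2 units, and GAANNTTCNNGAA and TTCNNGAANNTTC for elements of 3 units; a 3-unit match contains 2 overlapping 2-unit matches, each 2-unit form reads the same on both strands, and both strands were covered. Of the 10 genes, 8 had a window. Either 2-unit form was found in 6 of these 8, against 15.9% of all 33469 windows, and either 3-unit form in 4 of the 8, against 0.798% of all windows. The stretches before the start are shown for Hspa8, Hsph1 and Hspb1, and the shared element for Hspd1 and Hspe1. Capitals mark the matched letters.
Hspa8, chr8:50080264-50080513, plus strand: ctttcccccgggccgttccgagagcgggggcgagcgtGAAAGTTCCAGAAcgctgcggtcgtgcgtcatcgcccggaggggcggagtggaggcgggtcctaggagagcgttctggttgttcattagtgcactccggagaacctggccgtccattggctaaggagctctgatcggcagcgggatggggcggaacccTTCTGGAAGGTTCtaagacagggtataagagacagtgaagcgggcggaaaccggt
Hsph1, chr12:10427118-10427367, plus strand: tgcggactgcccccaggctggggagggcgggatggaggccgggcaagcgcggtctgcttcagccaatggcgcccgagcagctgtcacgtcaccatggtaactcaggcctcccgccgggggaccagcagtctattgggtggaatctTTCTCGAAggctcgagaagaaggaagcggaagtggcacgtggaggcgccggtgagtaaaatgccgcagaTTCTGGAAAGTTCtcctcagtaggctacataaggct
Hspb1, chr12:26432302-26432551, minus strand: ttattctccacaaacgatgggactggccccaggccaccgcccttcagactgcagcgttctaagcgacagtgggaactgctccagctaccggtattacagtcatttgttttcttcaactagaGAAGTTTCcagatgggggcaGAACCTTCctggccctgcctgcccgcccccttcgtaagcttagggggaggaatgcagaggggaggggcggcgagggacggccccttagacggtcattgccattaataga
Hspd1, chr9:64084256-64084284, minus strand: gggccTTCCGGAAGGTTCTAGAAccgagc
Hspe1, chr9:64084257-64084285, plus strand: ctcggTTCTAGAACCTTCCGGAAggcccc
The Hspa8 window held a 3-unit element at positions -213 to -201 and another at -55 to -43 from the start, and the Hsph1 window held 1 at -36 to -24. Hspd1 and Hspe1 are transcribed away from each other, and their elements, from -242 to -225 of Hspd1 and from -65 to -48 of Hspe1, are the same bases read from opposite strands. The Hspb1 window held 2 separate 2-unit matches and no 3-unit match. The windows of Hspa1a and Hsp90ab1 held none of these letter patterns, which says only that the letters are not in these windows. Windows of Hsp90aa1 and Cryab were not used here.

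Signals are given as log2 of the processed signal minus the 75th percentile of the array, so that 0 is the level of that percentile and a difference of 1 is a doubling. A difference was tested with limma on all 16 arrays and counted as called where the adjusted p (Benjamini-Hochberg, over all 26565 features) was under 0.05, which are genes with a symbol or probes without one. The 75th percentile of the raw signal ran from 553 to 924 over the arrays, and from 74.2% to 81.6% of the probes were well above background. Of the 10 markers of hippocampal neurons, 9 had a probe and stood above background on all 16 arrays. The array count limits precision: the median standard error of a difference from control was 0.13.

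None of the 9 chaperone genes was called on any Fe day against control, and the share of all features called was 0% at Fe day 5, 0% at Fe day 15 and 0.00753% at Fe day 30. None was called between 2 Fe days or in the moderated F-test over the 4 groups, nor was any other feature (0%). At an unadjusted p under 0.05, 0 of the 9 were higher at Fe day 5 (4.06% of all features), 2 were higher at Fe day 15 (5.17%) and 1 at Fe day 30 (3.12%), and none was lower (6.28%, 6.33% and 4.66%). Those at Fe day 15 were Hspa1a and Hspb1, and that at Fe day 30 was Hspb1. These were also the genes that differed the most between rats: the residual SD within groups was 0.83 for Hspa1a, 0.69 for Hspb1 and 0.52 for Cryab, which exceeded those of 97.3%, 95.6% and 91.2% of all features. Hspa8, Hsp90aa1, Hsp90ab1, Hspd1 and Hspe1 had residual SDs from 0.07 to 0.13, and Hsph1 stood at 0.20.

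**Figure D1:**
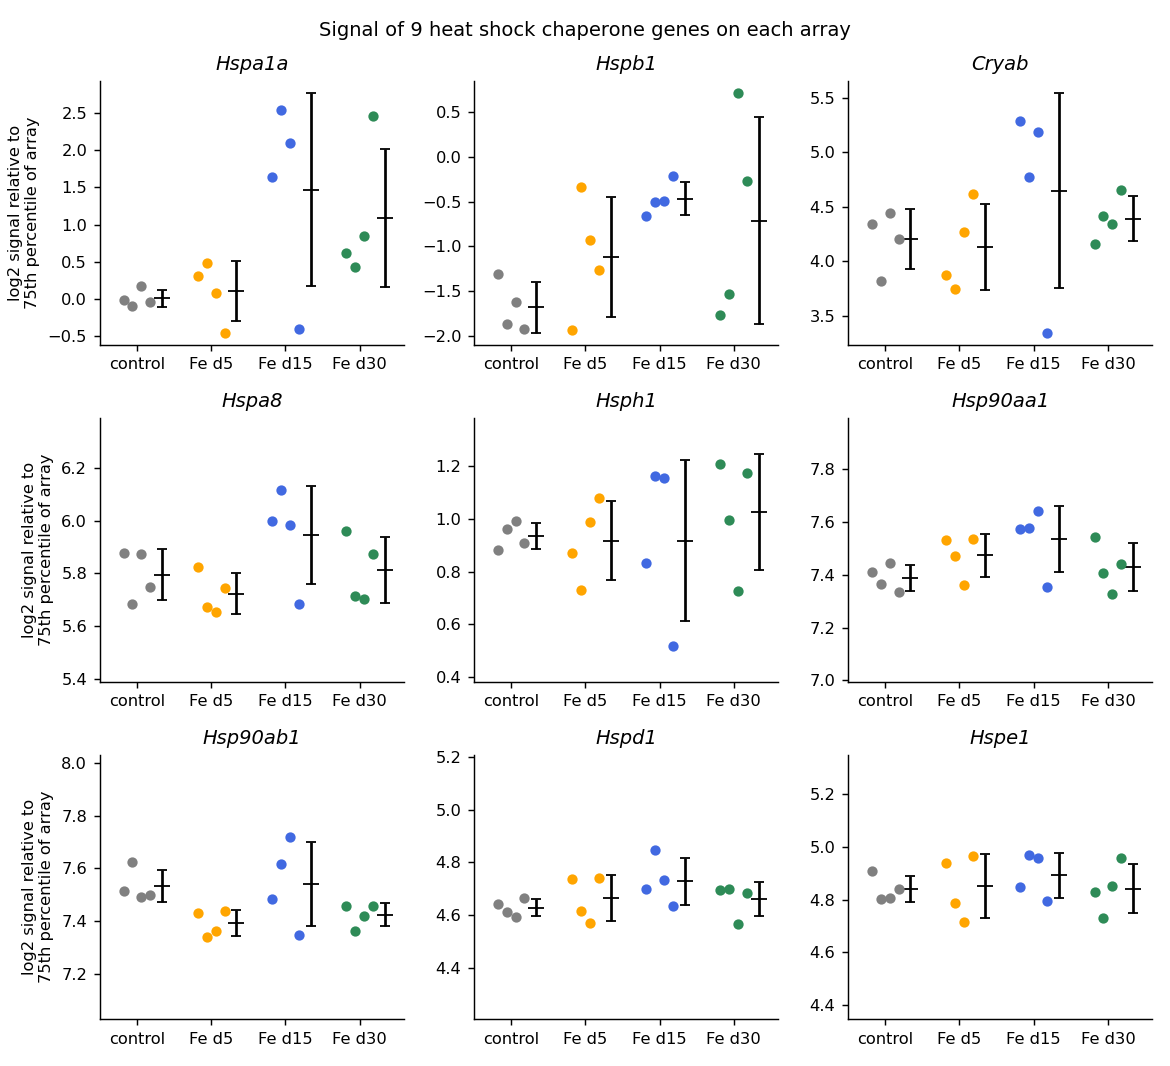
Signal of the 9 chaperone genes on each array, as log2 relative to the 75th percentile of the array; points are rats in order of replicate, and bars are the mean and SD of 4 rats. Hspa1a stood between 1.64 and 2.55 on 3 Fe day 15 arrays and at -0.40 on the other, while the controls lay between -0.09 and 0.18; the panels have separate vertical ranges.

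Hspa1a, the inducible Hsp70, gave nearly the same value in every control: -0.01, -0.09, 0.18 and -0.04 in control replicates 1 to 4. At Fe day 5 the 4 rats stood at 0.31, 0.49, 0.08 and -0.45, on both sides of the controls. The Fe day 15 rats stood at 1.64, 2.55, 2.09 and -0.40. Thus 3 of the Fe day 15 rats were far above every control and 1 was below them all, so the groups overlapped. At Fe day 30 the values were 0.61, 0.44, 0.85 and 2.46, all of them above the highest control, with replicate 4 well apart from the other three.

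The mean of Hspa1a at Fe day 15 was 1.46 ± 0.54 (SE) higher than control on the log2 scale, or 2.75-fold, with a 95% interval from 0.30 to 2.62. The unadjusted limma p was 0.0171 and the adjusted p 0.356, and an exact two-sided permutation of the 8 arrays gave p = 0.143. At Fe day 30 the difference was 1.08 ± 0.54 (2.11-fold, interval -0.08 to 2.23, limma adjusted p 0.646). These 4 rats did not overlap the controls, which held for 2.62% of all features in that direction, and the exact permutation p was 0.0286, the smallest that 4 against 4 arrays allow. At Fe day 5 the difference was 0.10 ± 0.54 (adjusted p 0.963). From Fe day 5 to Fe day 15 the mean was 1.36 ± 0.54 higher (limma p 0.0242, adjusted p 0.600), against an unadjusted call in 4.05% of all features in that direction.

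Single rats set the size of these differences. Without Fe day 15 replicate 4 the Hspa1a difference at that day was 2.08 ± 0.40 with a limma adjusted p of 0.0936, and without replicate 2 it was 1.10. Without Fe day 30 replicate 4 the difference at Fe day 30 was 0.62 ± 0.51. The spread between rats, each on its own array, was far larger than that between spots: the probe was printed in 10 spots on each array, and the SD of those spots was 0.02 to 0.07. Spots of 1 array do not measure differences between arrays or slides. A second Hspa1a probe gave differences of 0.08, 1.53 and 0.89 at the 3 Fe days, and it too was low in Fe day 15 replicate 4, at -1.38 against 1.37 in the highest Fe day 15 rat. The near-identical neighbouring gene Hspa1b had no probe of its own here, and signal of both genes could not be separated.

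The arrays came on 7 slides, per the file headers, and Hspa1a differed by slide among the Fe rats. The 5 Fe arrays on slides 2 to 4 stood between 0.85 and 2.55 and were the 5 highest of all 16, whereas the 7 Fe arrays on slides 1, 5, 6 and 7 stood between -0.45 and 0.61. Controls lay on slides 1 to 4, and those on slides 2 to 4 were low, at -0.09, 0.18 and -0.04. Within these slides, Fe day 15 replicates 1, 2 and 3 exceeded the control beside them by 1.72, 2.37 and 2.13, and Fe day 30 replicates 3 and 4 by 0.94 and 2.28. No Fe day 5 array was on these slides, and on slide 1 Fe day 5 replicate 4 differed from its control by -0.44. Slide 5, the one slide with both days, held Fe day 5 replicate 1 at 0.31 and Fe day 15 replicate 4 at -0.40. With slide as a fixed block, the Hspa1a difference was 1.02 ± 0.52 at Fe day 5 (limma adjusted p 0.904), 1.61 ± 0.44 at Fe day 15 (adjusted p 0.432) and 1.33 ± 0.49 at Fe day 30 (adjusted p 0.869). The Fe day 5 estimate thus moved from 0.10 to 1.02 with the block. All 4 controls were in position 1 of their slide and all 4 Fe day 15 arrays in position 2. Fe day 30 replicates 1 and 2 were in position 2, and replicates 3 and 4 in position 4. Position and group thus cannot be told apart for Fe day 15 or for Fe day 30 against control.

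**Figure D2:**
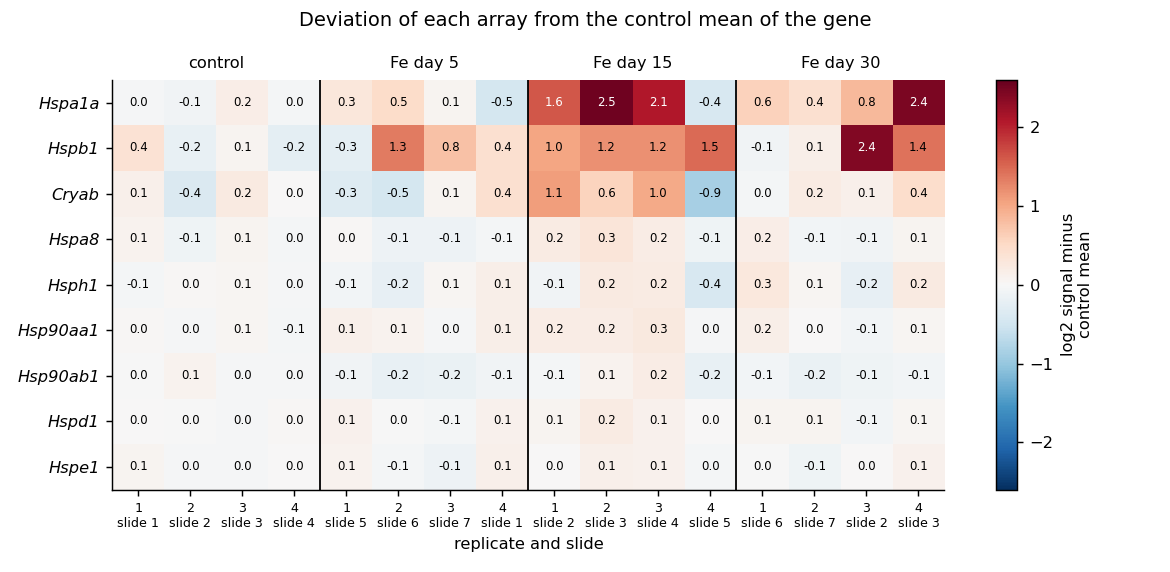
Deviation of each array from the control mean of the gene, in log2 units; columns are replicates within groups with their slide, and rows are genes. Fe day 15 replicate 4, on slide 5, was the lowest of its group for 8 of the 9 genes, with Hspb1 the exception.

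Hspa8, the constitutive Hsc70, stood at 5.88, 5.68, 5.87 and 5.75 in the controls. Its values at Fe day 15 were 6.00, 6.12, 5.98 and 5.68, with the same 3 rats above every control and replicate 4 level with the lowest control. The difference there was 0.15 ± 0.09 (interval -0.05 to 0.35, limma adjusted p 0.552), and at Fe day 5 and Fe day 30 it was -0.07 and 0.02. At Fe day 5 the rats ranged from 5.65 to 5.82, and at Fe day 30 from 5.70 to 5.96. Between Fe day 5 and Fe day 15 the difference was 0.22 ± 0.09 (limma p 0.0338, adjusted p 0.641). Over the 16 arrays the Hspa8 signal had a Pearson r of 0.72 with that of Hspa1a (rho 0.58; 0.65 without the 2 arrays farthest out in Hspa1a), given as a description of arrays that share slides and groups. The dimmest of 4 Hspa8 probes differed from the rest, at 0.37, 0.28 and 0.49 for the 3 Fe days.

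Hsph1, the Hsp110 that releases nucleotide from Hsp70, overlapped the controls on all 3 days. The controls stood between 0.88 and 0.99, and the Fe day 15 rats at 0.83, 1.16, 1.16 and 0.52. Replicates 2 and 3 were thus above and replicates 1 and 4 below every control, and the means differed by -0.02 ± 0.14 at Fe day 15 and 0.09 ± 0.14 at Fe day 30. The interval at Fe day 15 ran from -0.32 to 0.28, so a doubling lay outside it.

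Both cytosolic Hsp90 genes were steady between rats. Hsp90aa1, the inducible form, stood between 7.33 and 7.44 in controls and at 7.57, 7.58, 7.64 and 7.35 at Fe day 15, with 3 rats above every control and replicate 4 inside their range. Its difference was 0.15 ± 0.07 at Fe day 15 (interval -0.01 to 0.31, limma adjusted p 0.461), 0.09 at Fe day 5 and 0.04 at Fe day 30. The 4 Hsp90aa1 probes gave 0.15, 0.20, 0.07 and 0.13 at Fe day 15. On the second brightest of them all 4 Fe day 15 rats, at 6.28 to 6.39, were above every control, at 6.08 to 6.16, and replicate 4 was not the lowest. This was not the probe chosen for the gene, and 4.11% of all features showed no overlap in this direction.

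Hsp90ab1, the constitutive form, leaned the other way on the outer days. The controls stood at 7.51, 7.62, 7.49 and 7.50. The Fe day 5 rats stood at 7.43, 7.34, 7.36 and 7.44, and the Fe day 30 rats at 7.46, 7.36, 7.42 and 7.46. Every rat of both Fe groups was below every control, which held for 5.09% of all features at Fe day 5 and 3.63% at Fe day 30. The differences were small, at -0.14 ± 0.08 (limma adjusted p 0.503) and -0.11 ± 0.08 (adjusted p 0.703), with an exact permutation p of 0.0286 for each, and both used the same 4 controls. The Fe day 5 difference was -0.01 with quantile normalization, -0.08 with a normexp background, -0.04 with slide as a fixed block and -0.05 over all probes, and the Fe day 30 difference was -0.05 both with quantile normalization and with the slide block. At Fe day 15 the difference was 0.01. A second Hsp90ab1 probe gave -0.15 at Fe day 5, but the dimmest of the 3 gave 0.14 at Fe day 5 and 0.23 at Fe day 30.

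The mitochondrial chaperonins also varied little between rats. Hspd1 (Hsp60), with the lowest residual SD of the 9 genes, stood between 4.59 and 4.67 in controls and at 4.70, 4.85, 4.73 and 4.63 at Fe day 15, again with the first 3 rats above every control. Its differences at the 3 Fe days were 0.04, 0.10 and 0.03, each ± 0.07. Hspe1 (Hsp10), which caps the Hsp60 barrel and shares its heat shock element, differed by 0.01, 0.05 and 0.00, each ± 0.07. Its Fe day 15 interval ran from -0.11 to 0.21.

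**Figure D3:**
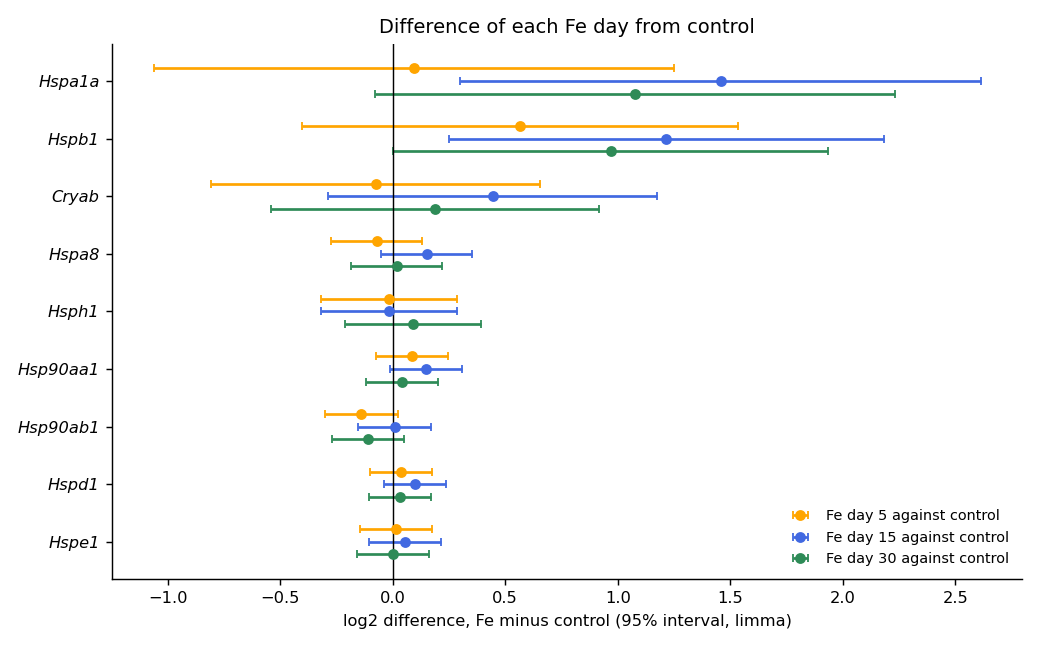
Log2 difference from control of each gene at Fe days 5, 15 and 30, with 95% intervals from limma on 16 arrays. The intervals of Hspa1a and Hspb1 at Fe day 15 lie above 0 before adjustment, as does, barely, that of Hspb1 at Fe day 30 (0.001 to 1.94). Those of the Hsp90 genes and the mitochondrial chaperonins span less than 0.35 on the log2 scale.

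Hspb1, the small heat shock protein Hsp27, was the one gene of the 9 whose Fe day 15 rats all lay above every control on the probe chosen for the gene. The controls stood at -1.31, -1.87, -1.62 and -1.93. Its values at Fe day 15 were -0.66, -0.50, -0.49 and -0.21, all above the highest control, and replicate 4, lowest of its group for the other genes, was here the highest. The difference was 1.22 ± 0.45, or 2.32-fold (interval 0.25 to 2.18, limma p 0.0174, adjusted p 0.356). Groups that did not overlap in this direction were found for 4.11% of all features, and the exact permutation p was 0.0286. Leaving out any 1 array gave differences from 1.13 to 1.34. Within slides, Fe day 15 replicates 1, 2 and 3 exceeded their controls by 1.21, 1.12 and 1.44, and with slide as a fixed block the difference was 1.33 ± 0.57 (adjusted p 0.559).

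The other days of Hspb1 were uneven. At Fe day 5 the rats stood at -1.94, -0.33, -0.93 and -1.26, so that 3 were above every control and replicate 1 was below them all. At Fe day 30 they stood at -1.77, -1.53, 0.72 and -0.27, with 2 rats among the controls and 2 far above. The differences were 0.57 ± 0.45 at Fe day 5 (limma adjusted p 0.644) and 0.97 ± 0.45 at Fe day 30 (p 0.0497, adjusted p 0.643; exact permutation p 0.200). Without Fe day 30 replicate 3 the latter was 0.49 ± 0.37. With slide as a fixed block the Fe day 5 difference was 1.00 ± 0.67.

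The highest Hspb1 value of Fe day 30 and the 2 highest of Fe day 5 lay on arrays with strong signal from markers of meninges, and in part of choroid plexus. For each array a cell type was scored by the median deviation of its markers from their control means, in log2 units. Fe day 30 replicate 3, at 0.72 the highest for Hspb1 of all arrays, scored 8.24 for choroid plexus and 3.58 for meninges, while Fe day 5 replicates 2 and 3, the 2 highest of their group, scored 1.89 and 4.61 for choroid plexus and 4.55 and 2.76 for meninges. Controls scored -0.62 to 0.85 for choroid plexus and -0.06 to 0.08 for meninges. Other arrays had choroid plexus scores near that of Fe day 5 replicate 2 without its high meningeal score. Fe day 30 replicate 4, at -0.27 for Hspb1, scored 1.78 for choroid plexus and 0.07 for meninges. Fe day 5 replicate 1, at -1.94 the lowest for Hspb1 of all arrays, scored 1.61 for choroid plexus and 0.25 for meninges. Measured markers were 6 of 10 for choroid plexus, where Kl, Slc4a5 and Prlr were too dim and Otx2 had no probe, and 9 of 10 for meninges, where Aldh1a2 was too dim. The choroid plexus signal summed over its markers, in multiples of the 75th percentile, was 0.36 to 1.41 in controls, 0.88 to 29.4 at Fe day 5, 0.48 to 2.42 at Fe day 15 and 0.49 to 291 at Fe day 30. For meninges the sums were 7.96 to 9.22, 8.72 to 179, 9.09 to 16.9 and 8.51 to 133 in the same order. Without Fe day 30 replicate 3 and Fe day 5 replicates 2 and 3, the Hspb1 difference was 0.08 at Fe day 5 and 0.49 at Fe day 30. This setting was added after the data were seen. These 3 rats held the highest Hspb1 values of their groups, so a smaller difference followed from leaving them out. At Fe day 5 only replicates 1 and 4 remained, at -1.94 and -1.26. At Fe day 15, where Hspb1 did not overlap the controls, choroid plexus scores were -0.36 to 1.43, against -0.62 to 0.85 in controls. Meningeal scores at that day were 0.17 to 1.34, above every control. Replicate 4 was the highest of its group in both of these scores and in Hspb1. Blood markers, 4 of 5 measured with no probe for Hba-a2, scored 0.51 to 1.55 there, above every control at -0.31 to 0.26, and replicate 4 was the highest of its group in both blood score and Hspb1. Fe day 5 replicate 2 at 2.00 and Fe day 30 replicate 3 at 1.82 were likewise the highest of their groups in both. The blood signal summed to 1.15 to 1.58 in controls, 1.33 to 4.21 at Fe day 5, 1.41 to 4.01 at Fe day 15 and 0.98 to 4.70 at Fe day 30. The part of these tissues and of blood in the Hspb1 differences was not tested.

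Cryab, the small heat shock protein alpha B-crystallin, stood at 4.34, 3.82, 4.45 and 4.21 in controls. The Fe day 15 rats stood at 5.28, 4.77, 5.19 and 3.35: the first 3 rats held the 3 highest values of all 16 and replicate 4 the lowest. The mean difference was 0.44 ± 0.34 (interval -0.29 to 1.17, limma adjusted p 0.632), and without replicate 4 it was 0.88 ± 0.21 (adjusted p 0.207). At Fe day 5 the rats ranged from 3.74 to 4.61 and at Fe day 30 from 4.16 to 4.65, with differences of -0.08 and 0.19. With slide as a fixed block the differences were 0.50, 0.75 and 0.50 at Fe days 5, 15 and 30. Markers of oligodendrocytes, 10 of 10 measured, scored 0.58 and 0.50 in Fe day 15 replicates 1 and 3 but 0.02 in replicate 2. Replicate 4 of Fe day 15, with the lowest Cryab, scored -0.13, within the controls at -0.23 to 0.15. The score was 0.70 in Fe day 5 replicate 4, which held the highest Cryab of its group. Their summed signal was 212 to 266 in controls, 179 to 340 at Fe day 5, 227 to 336 at Fe day 15 and 201 to 278 at Fe day 30, and their part in the Cryab values was not tested.

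Fe day 15 replicate 4 stood apart for most chaperones. It was the lowest of its group for 8 of the 9 genes and the lowest of all 16 arrays for Hsph1 and Cryab. On the 12 other probes of these genes it was the lowest of its group on 7 and not on 5, which were probes of Hsp90aa1, Hsp90ab1, Hspd1 and Hspa8. The second brightest Hspa8 probe put it at 5.88, above the controls at 5.79 to 5.84. Its score was 1.13 for microglia and macrophages, the highest of the 16 arrays, and -0.72 for hippocampal neurons, the lowest. Microglial markers, 10 of 10 measured, summed to 30.2 to 34.5 in controls, 31.9 to 42.5 at Fe day 5, 28.5 to 70.5 at Fe day 15 and 24.2 to 72.0 at Fe day 30. Neuronal markers, 9 of 10 measured, summed to 25.7 to 30.6, 14.7 to 24.2, 16.7 to 29.7 and 16 to 30.1. It was also the only Fe day 15 array on a slide without a control, and the part of slide and cell content in its chaperone values was not tested.

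Counted by sign, 5 of the 9 genes were higher than control at Fe day 5, 8 at Fe day 15 and 8 at Fe day 30, where 45.8%, 50.3% and 46.6% of all features were higher. The median difference of the 9 was 0.01, 0.15 and 0.04, against -0.02, 0.00 and -0.01 over all features. Single rats moved these medians: at Fe day 5 it ran from -0.03 without replicate 4 to 0.06 without replicate 3 and from 0.00 to 0.04 without 1 control, at Fe day 15 it was 0.09 without replicate 2 and 0.21 without replicate 4, and at Fe day 30 it was 0.02 without replicate 1 and 0.08 without replicate 3. With arrays centred on their median instead, 4, 7 and 5 of the 9 were higher, so the signs at Fe day 30 depended on the scaling. At Fe day 30 the median was then 0.005 for the 9 genes and -0.049 for all features, so both moved down with this scaling. The 3 comparisons share their controls.

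Other chaperone and heat shock genes were taken from a list of 59, of which 52 were measured; Hsf1 was among those not measured. None was called on any day, and 26, 41 and 29 of the 52 were higher than control at Fe days 5, 15 and 30, with median differences of 0.00, 0.08 and 0.01. At an unadjusted p under 0.05, 0, 8 and 1 were higher and 2, 1 and 1 lower, against 4.06%, 5.17% and 3.12% of all features higher and 6.28%, 6.33% and 4.66% lower. At Fe day 15, 50.3% of all features were higher on average. By class, 13 of 13 co-chaperones (median 0.08), 8 of 8 subunits of the cytosolic chaperonin TRiC (0.11) and 6 of 7 further Hsp70 and Hsp110 genes (0.16) were higher. So were 5 of 5 other genes that heat shock factor 1 is known to bind, 5 of 11 J proteins and 2 of 5 small heat shock proteins. Of the heat shock factors 1 of 2 was higher, as was Trap1, the 1 further Hsp90 gene. TRiC subunits had similar medians of 0.11 at Fe day 5 and 0.09 at Fe day 30, each with 6 of 8 higher. Differences between classes were not tested.

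The genes of lowest p in that list were not past the threshold. At Fe day 15 the higher ones were Bag1, a nucleotide exchange factor of Hsp70, at 0.20 ± 0.06, the TRiC subunit Cct2 at 0.22 ± 0.07 and the Hsp70 relative Hspa13 at 0.19 ± 0.07, with limma adjusted p from 0.304 to 0.344. For these 3 genes all 4 Fe day 15 rats were above every control, replicate 4 included, as for 4.11% of all features. The lower ones were the J protein Dnaja2 at -0.21 ± 0.08, Hspb3 at -0.73 ± 0.38 and Dnajb5 at -0.43 ± 0.22. Dnajb5, another J protein, was lower than every control in all rats of the 3 Fe groups, with means of 0.87, 1.01 and 0.91 against 1.44, and differences of -0.56, -0.43 and -0.53, each ± 0.22 (limma adjusted p 0.473, 0.478 and 0.633). Groups that did not overlap in this direction were found for 5.09%, 5.73% and 3.63% of all features at the 3 days.

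At Fe day 5 the higher genes of lowest p were the TRiC subunits Tcp1, Cct8 and Cct7, at 0.15, 0.14 and 0.21, and beside Dnajb5 the lower ones were the polyubiquitin gene Ubb at -0.20 and Hspa2 at -0.21. At Fe day 30 they were Hspa13 at 0.15, Hspa1l at 0.65 and Cct7 at 0.19 among the higher, and Hspbp1, an exchange factor of Hsp70, at -0.12 and Ubb at -0.13 among the lower. Hspa1l was above background on 13 of the 16 arrays. Bag3, a partner of Hspb8 and Hsp70 that heat shock factor 1 is known to bind, was picked out after its values were seen: it stood at 2.41, 2.42, 2.64 and 1.97 at Fe day 15 against 1.70 to 2.10 in controls, a difference of 0.45 ± 0.17 (limma adjusted p 0.356), and again replicate 4 was the lowest of its group.

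**Figure D4:**
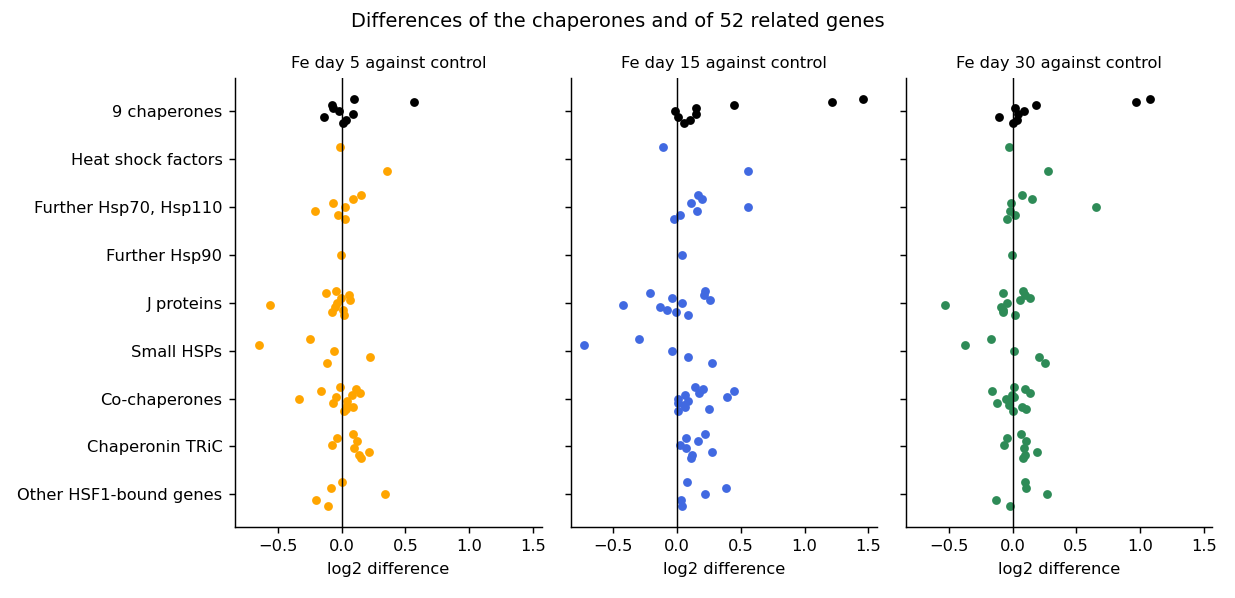
Log2 differences from control of the 9 chaperone genes (black) and of 52 related genes by class (colour), with 1 point per gene. Co-chaperones and TRiC subunits lay above 0 at Fe day 15 in 13 of 13 and 8 of 8 genes, with medians of 0.08 and 0.11. Further Hsp70 and Hsp110 genes did so in 6 of 7, with a median of 0.16.

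The patterns most like that of Hspa1a over the 16 arrays belonged, among features with a symbol, to Pla2g3 (Pearson r 0.90, rho 0.91), Btbd7 (r 0.88, rho 0.98), the J protein Dnaja1 (r 0.85, rho 0.71), Mfsd2a (r 0.82, rho 0.77) and Prpsap1 (r 0.82, rho 0.62). Without the 2 arrays farthest out in Hspa1a these r were 0.91, 0.87, 0.77, 0.85 and 0.81. Dnaja1 stood at 4.82, 5.08, 5.02 and 4.44 at Fe day 15, against 4.55 to 4.70 in controls, so that it shared the low replicate 4.

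For Hspb1 the nearest patterns were those of Nfkbia (r 0.87, rho 0.84), Il18bp (r 0.85, rho 0.75), Map3k6 (r 0.85, rho 0.77) and Ccdc8 (r 0.84, rho 0.78), with r from 0.72 to 0.82 without the 2 farthest arrays. Nfkbia, the inhibitor of NF-kappa B, stood at 2.91 in Fe day 30 replicate 3, the rat with the highest Hspb1. For Cryab they were Mettl18 (r 0.91, rho 0.86), Mtmr2 (r 0.91, rho 0.93), Napepld (r 0.88, rho 0.82), Gpatch4 (r 0.86, rho 0.76) and B3galt5 (r 0.85, rho 0.74), with r from 0.71 to 0.91 without the 2 farthest. Hspa1a and Hspb1 themselves had an r of 0.46 (rho 0.40), and of 0.14 once group means were removed, and Hspb1 and Cryab an r of 0.17. Without the 2 arrays farthest out in Hspb1, its r was 0.72 with Hspa1a and 0.51 with Cryab. It was 0.36 with Hspa1a without the 2 farthest in Hspa1a, and 0.36 with Cryab without the 2 farthest in Cryab. These correlations are descriptions of 16 arrays that share slides and groups, each picked as the highest among all features with a symbol where a gene is named as nearest.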

How the data were processed

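The arrays were 1-colour Agilent arrays with 1 array per rat; per the submitters' processing notes they were read with Agilent Feature Extraction 9.5. Per the file headers, the deposited processed signal is a background-subtracted intensity on a linear scale. Other deposited columns include the median intensities of spot and background, and marks for spots above background, saturated or not uniform. The deposited series table equalled it (100% at a tolerance of 1e-06), with column medians of 65.1 to 108, so its scale is linear, uncentred and unscaled between arrays. Here log2 was taken and the 75th percentile of each array subtracted. Spots marked as outliers were left out, spots of a probe averaged, and a probe kept if every array of some group showed it well above background, which held for 30548 of 41012. No spot was saturated. Symbols came through RefSeq accessions and a gene table (GRCr8, names only), which matched 15175 of 19715 probes with such an accession, and the probe of highest mean signal stood for a gene. This gave 26565 features, 9588 with a symbol.

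A one-way model of 16 arrays was fitted with limma 3.58.1 in R 4.3.3 (12 residual degrees of freedom; two-sided; Benjamini-Hochberg over all features). Spread here is that between arrays of different rats, so differences between rats, arrays and slides are not separated in it. On simulated data for Fe day 15 against control, 76 of 100 features changed by 1 and 95 of 100 changed by 2 (log2) were called, with 6 false calls. The changed features were drawn at random, with normal noise of equal spread in all groups and no slide effect. The median residual SD was 0.19, against 0.83 for Hspa1a, 0.69 for Hspb1 and 0.52 for Cryab, so these shares do not carry over to those 3 genes. Alternatives covered scaling, background, filters, probes, blocks for slide and replicate number, array weights and single arrays left out. The background alternative used the median spot intensity, since the planned mean was not used here. Other chaperone genes were named by a rule: the 3 of lowest p in each direction for each Fe day. Likeness is the 5 highest Pearson r among features with a symbol; 1 of these for Hspb1 is not reported here. The genes and lists were chosen with earlier results of these data known.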

Additional observations from a re-analysis of the deposited data

Results flagged for a closer look

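Of the 36 groups of 4 arrays formed by 9 genes and 4 groups, 2 held an array far from the other three by Dixon's ratio of gap to range at its 95% critical value; chance alone flags about 1 in 20 groups. Control replicate 2 stood at 7.62 for Hsp90ab1, where the other controls stood between 7.49 and 7.51 (ratio 0.843). Without that control the Fe day 30 difference of Hsp90ab1 was -0.08. Fe day 30 replicate 3, the rat with the high choroid plexus score, stood at 4.56 for Hspd1 while the rest of its group stood between 4.68 and 4.70 (ratio 0.887). Fe day 15 replicate 4 was not among them, since the other Fe day 15 arrays were themselves spread out for Hspa1a and Cryab.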

How the results depend on the processing

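Of 27 chaperone differences from control under 30 alternatives (810 values), 768 kept their direction and side of the threshold, 41 changed sign where the difference was within its standard error, none passed the threshold, and Hsp90ab1 at Fe day 30 reversed to 0.020 with all its probes averaged. Many of the 768 kept their direction by construction. Leaving out an array of neither group, the 2 groups compared alone, the replicate block and the exact permutation test leave the estimate as it is. The filters on dim probes and the outlier spots also left the chosen probes unchanged, so the count overstates how far the estimates were tried. The lowest adjusted p of limma was 0.060, for Hspa1a at Fe day 15 with array weights. The median of the 9 differences became 0.11 at Fe day 5 and at Fe day 30 with slide as a fixed block and 0.11 at Fe day 30 with quantile normalization, and 5 of the 9 were higher at Fe day 30 with arrays centred on their median. The causes were not tested.

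Over all features, array weights called 184 at Fe day 15 and 25 at Fe day 30 against control, 2 between Fe days 5 and 15 and 17 in the F-test over the 4 groups. At Fe day 30, where 2 were called, median centring gave 9 and quantile normalization 8, and 0 were called with slide as a fixed block, with the 2 groups compared alone, with the exact permutation test, and without the 3 rats high in choroid plexus or meningeal markers. Compared alone, Fe day 15 and control gave 2 calls and Fe days 30 and 5 gave 1, and without the 3 rats 1 was called at Fe day 15. Median centring and quantile normalization gave 1 each in the F-test. No filter on dim probes gave 1 at Fe day 5, 1 at Fe day 15 and 1 in the F-test. Leaving out 1 array gave 0 to 10 calls at Fe day 15, the most without Fe day 15 replicate 4, 0 to 9 at Fe day 30, the most without Fe day 5 replicate 4, 0 to 13 between Fe days 5 and 15, and 0 to 2 in the F-test.

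Replicate numbers did not pair the rats: deviations of same-numbered arrays from different groups correlated between -0.41 and 0.39, over 0.1 in 5 of 24 comparisons, and 2 of 16 arrays correlated best with their own number. With a replicate block, 1 feature was called at Fe day 15 and no chaperone call changed.

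The study holds 4 rats per group, and for Hspa1a, Hspb1 and Cryab the spread between rats gives intervals over 1.4 log2 units wide, so doublings lie within several of them. Hspb1 is dim, and with a normexp background its Fe day 15 difference was 1.02 and not 1.22.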
